A study of Mus musculus with 4 samples.

Results

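Transcription regulators that haematopoietic stem cells need for their identity or self-renewal were followed in LSK cells of Zfp521 knockout mice. The members were chosen by gene symbol: Hlf, Mecom, Prdm16, Mllt3, Gata2, Runx1, Erg, Fli1, Gfi1b and Etv6. All 10 are among the 24421 genes in the count table, and all 10 were among the 14140 genes that passed the filter on low counts. LSK cells are the lineage-negative, Sca-1-positive and Kit-positive fraction of bone marrow, which holds stem cells together with multipotent progenitors. They were sorted from Zfp521-/- mice, which lack a zinc finger transcription cofactor (genotype Zfp521 knockout, here KO), and from control littermates (genotype wild type, here WT). There were 2 libraries per genotype. The labels give no strain, age or treatment and do not say how many animals stand behind each RNA sample, so the p-values cover the spread of these RNA samples only, some of which may be technical.

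Stem cell identity is held by a small circuit of DNA-binding proteins. The GATA factor Gata2, the Runt factor Runx1 and the ETS factors Erg and Fli1 bind many of the same enhancers together with Tal1, Lyl1 and Lmo2, and they regulate one another's genes. Hlf, Mecom and Prdm16 are largely restricted to the most immature cells of the marrow and decline as cells differentiate, while Gata2 and Gfi1b are also used by megakaryocytes, erythroid cells and mast cells. In bulk samples, fewer cells of a type and less RNA per cell cannot be told apart.

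The KO libraries had lost most of the Zfp521 signal, with 308 and 215 counts against 1561 and 1429 in WT (log2 fold change -2.19, SE 0.23, edgeR quasi-likelihood test, adjusted p = 0.000491). Library totals ran from 17787425 to 29863594 counts. One WT library, replicate 2, had a male pattern of Xist and Y-linked counts and the other 3 had a female one. None of the 10 regulators is on X or Y, but an effect of sex on them was not tested. Within WT, sex cannot be told apart from other differences between the replicates. Leaving out WT replicate 2 leaves only libraries with the female pattern. Kit, the receptor used in the sort, stood at 617 to 708 CPM (reads of a gene scaled to library size, with TMM factors) across the libraries and Ly6a, the gene of Sca-1, at 36.9 to 67.0 CPM. The T cell gene Cd3e, one of the lineage antigens that such a sort removes, had 2 to 22 counts. Among 958 calls over all genes, 55.6% were higher in KO, a share that became 69.7% with upper quartile scaling, 68.5% without WT replicate 2, 50% with the replicate number as a block and 46.2% without KO replicate 1.

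All 10 regulators were well above the floor of 3 counts, which is 0.108 to 0.152 CPM. Levels of different genes were compared per kilobase of annotated exon (CPM per kb). By this measure Erg led in WT (151 ± 17.5 CPM per kb, SD, n = 2), followed by Hlf (134 ± 3.84), Etv6 (96.0 ± 3.67), Fli1 (57.2 ± 2.11), Runx1 (29.7 ± 3.41), Gata2 (25.0 ± 0.678), Gfi1b (14.4 ± 0.353), Mllt3 (12.9 ± 0.201), Mecom (6.05 ± 1.20) and Prdm16 (4.40 ± 1.60). Each gene's WT libraries lay above those of the next gene in this order, apart from Mecom and Prdm16, whose ranges overlapped. In KO the first 2 places changed over, with Hlf at 140 ± 30.9 and Erg at 126 ± 13.7 CPM per kb, and Gata2 (35.5 ± 8.57) stood before Runx1 (27.3 ± 3.47). The KO libraries of Hlf and Erg overlapped, and so did those of Gata2 and Runx1, so these changes of place are within the spread between libraries.

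**Figure D1:**
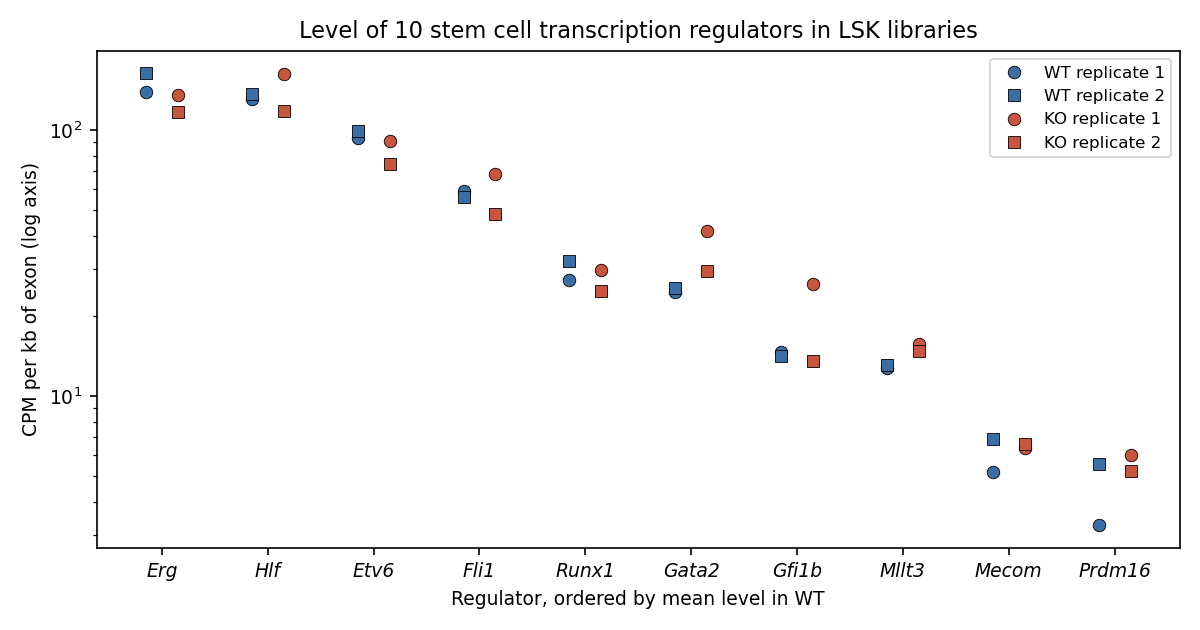
Level of each regulator in each library, as CPM per kb of exon on a log axis; blue symbols are the WT and red symbols the KO libraries, circles replicate 1 and squares replicate 2. The order from Erg to Prdm16 spans 151 to 4.40 CPM per kb in WT, and the KO symbols lie close to the WT symbols for most genes, with Gfi1b and Gata2 in KO replicate 1 the most separate.

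None of the 10 regulators passed an adjusted p of 0.05 in either direction (edgeR quasi-likelihood test), where 6.78% of all genes tested did, 3.77% as higher and 3.01% as lower in KO. DESeq2 called none of them either. At an unadjusted p under 0.05 there was 1 regulator, Gata2, against 24.5% of all genes. Of the 10, 7 had a positive and 3 a negative log2 fold change of KO over WT, with a median of 0.08 against 0.02 for all genes. The median size of the change, whatever its sign, was 0.23 for the regulators and 0.38 for all genes, and the median SE was 0.17 and 0.28. The regulators are abundant transcripts: 8 of the 10 stood at percentile 80.9 of mean CPM or above, with Prdm16 at 69.7 and Gfi1b at 59.9.

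These data bound the change of most regulators. For 9 of the 10, the 95% interval of the log2 fold change excluded a 2-fold change in either direction, which held for 47.3% of all genes tested. Gfi1b is the exception, with an interval from -0.17 to 1.12. The interval of Gata2 alone excluded 0. Both KO libraries lay above both WT libraries for 2 regulators, Gata2 and Mllt3, and below them for 2, Erg and Etv6; the shares of all genes were 28.8% and 27.6%.

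**Figure D2:**
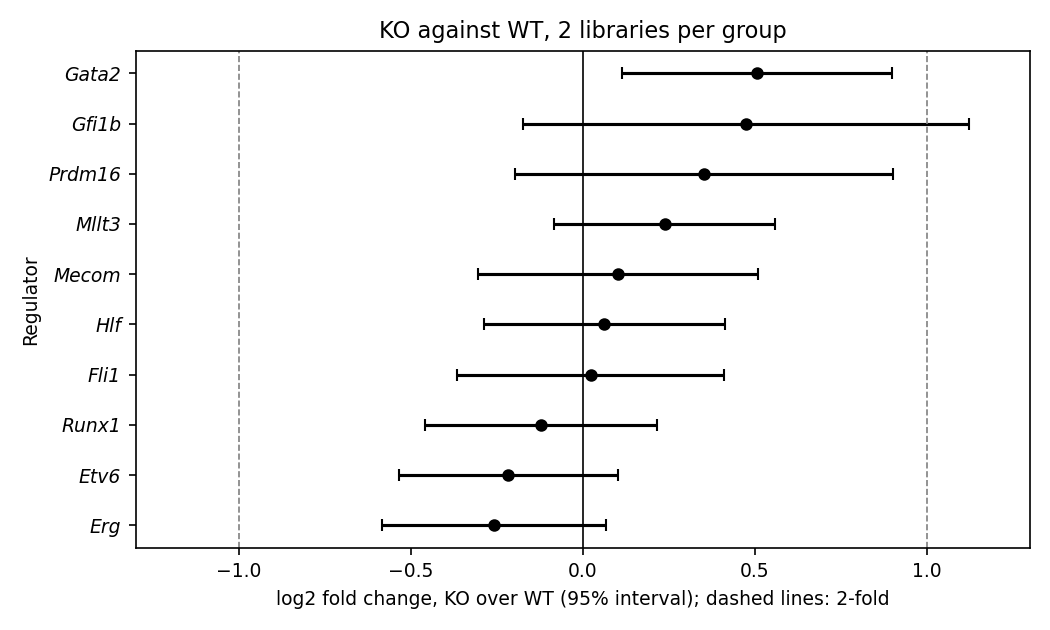
Log2 fold change of KO over WT for each regulator, with its 95% interval from the edgeR fit on 2 libraries per group; dashed lines mark a 2-fold change either way. The points run from -0.26 for Erg to 0.51 for Gata2, and the interval of Gfi1b is the one that crosses a dashed line.

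Hlf, a PAR bZIP factor whose expression marks long-term stem cells (ENSMUSG00000003949.16, chromosome 11, 90336536 to 90390895 on the minus strand of mm10), was read deeply, with 15486 to 24361 counts per library. It stood at 875 and 911 CPM in WT and at 1079 and 787 CPM in KO. The KO libraries thus fell on either side of the WT pair, and the log2 fold change was 0.06 (95% interval -0.29 to 0.41, adjusted p = 0.848). Without KO replicate 1 the sign turned, to -0.19.

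Mecom encodes the zinc finger proteins Evi1 and Mds1-Evi1, which are needed to maintain stem cells (ENSMUSG00000027684.16, chromosome 3, 29951296 to 30548008, minus strand). It was at 64.5 and 85.7 CPM in WT and at 79.4 and 81.8 CPM in KO. The KO values lay between the WT values (log2 fold change 0.10, interval -0.31 to 0.51, adjusted p = 0.777), and the sign turned without WT replicate 1, to -0.09. One count per gene cannot separate the long form from Evi1, which start at different promoters.

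Prdm16, the nearest relative of Mecom and a factor of stem cell maintenance (ENSMUSG00000039410.16, chromosome 4, 154316125 to 154636873, minus strand), was the lowest of the 10 per kilobase. Its values were 30.5 and 51.6 CPM in WT and 56.1 and 48.6 CPM in KO. WT replicate 1 was the low library and the groups overlapped (log2 fold change 0.35, interval -0.20 to 0.90, adjusted p = 0.412). The estimate rested on that library: leaving out WT replicate 1 gave 0.02 and leaving out WT replicate 2 gave 0.77.

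Mllt3, also called AF9, reads acylated histones and brings Dot1l and the elongation machinery to stem cell genes (ENSMUSG00000028496.17, chromosome 4, 87769925 to 88033364, minus strand). It was at 153 and 156 CPM in WT and at 188 and 177 CPM in KO. The groups did not overlap and both pairs of libraries were tight, yet the difference of 1.18-fold missed the threshold (log2 fold change 0.24, interval -0.08 to 0.56, adjusted p = 0.342). Of the 10 regulators it kept the narrowest range over the alternatives, from 0.19 to 0.32.

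Runx1, the DNA-binding subunit of core binding factor and a gatekeeper of definitive blood formation (ENSMUSG00000022952.17, chromosome 16, 92601466 to 92826149, minus strand), was at 328 and 386 CPM in WT. In KO it was at 358 and 299 CPM. The groups overlapped (log2 fold change -0.12, interval -0.46 to 0.22, adjusted p = 0.670).

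Erg and Fli1 are closely related ETS activators. Erg (ENSMUSG00000040732.20, chromosome 16, 95359169 to 95586593, minus strand) was at 479 and 565 CPM in WT and at 470 and 403 CPM in KO. Its KO libraries were both below WT, KO replicate 1 by a small margin (log2 fold change -0.26, interval -0.58 to 0.07, adjusted p = 0.309). Fli1 (ENSMUSG00000016087.13, chromosome 9, 32422204 to 32542861, minus strand) was at 205 and 194 CPM in WT and at 237 and 168 CPM in KO. The KO libraries again lay on both sides of WT (log2 fold change 0.02, interval -0.36 to 0.41, adjusted p = 0.956), and the sign turned without WT replicate 2 (-0.03) and without KO replicate 1 (-0.25).

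Etv6, an ETS repressor needed for the survival of adult stem cells in the marrow (ENSMUSG00000030199.16, chromosome 6, 134035700 to 134270158, plus strand), was at 559 and 590 CPM in WT. In KO it was at 544 and 445 CPM, both below WT, with KO replicate 2 the lower (log2 fold change -0.22, interval -0.53 to 0.10, adjusted p = 0.384). Its estimate was -0.38 without KO replicate 1 and -0.09 without KO replicate 2.

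Gata2 and Gfi1b had the 2 highest fold changes of the 10, and both were highest in KO replicate 1. Gata2, a zinc finger activator on which stem cell emergence and survival depend (ENSMUSG00000015053.14, chromosome 6, 88193891 to 88207032, plus strand), was at 132 and 137 CPM in WT and at 224 and 159 CPM in KO. Both KO libraries were above both WT libraries, by 1.42-fold on average (log2 fold change 0.51, SE 0.18, interval 0.11 to 0.90, edgeR adjusted p = 0.108). Gfi1b, a zinc finger repressor that holds stem cells in quiescence and is required for megakaryocytes and erythroid cells (ENSMUSG00000026815.14, chromosome 2, 28609450 to 28621982, minus strand), was at 26.8 and 25.9 CPM in WT. In KO it was at 48.3 and 24.8 CPM. One KO library was thus 1.95 times the other, and KO replicate 2 lay below both WT libraries (log2 fold change 0.48, SE 0.30, adjusted p = 0.347).

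Both genes passed the threshold without KO replicate 2, Gata2 with a log2 fold change of 0.73 (adjusted p = 0.00791) and Gfi1b with 0.87 (adjusted p = 0.0439). Without KO replicate 1 neither did, and the values were 0.23 (adjusted p = 0.396) and -0.09 (adjusted p = 0.870). Over the 11 alternatives the adjusted p of Gata2 ran from 0.00791 to 0.458 and that of Gfi1b from 0.0439 to 0.870. Gata2 also passed with no filter on low counts (adjusted p = 0.0381) and with the replicate number as a block (adjusted p = 0.0117), and its log2 fold change was positive in all 11 alternatives.

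**Figure D3:**
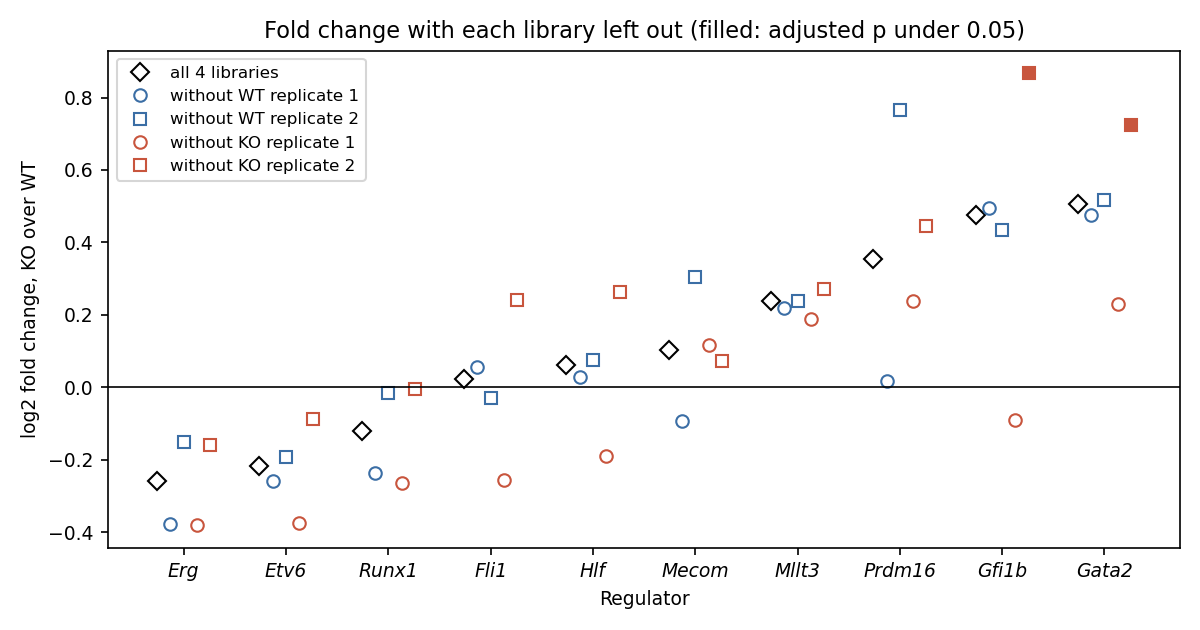
Log2 fold change of KO over WT for each regulator with all 4 libraries (diamonds) and with each library left out in turn; filled symbols have an adjusted p under 0.05. Gata2 and Gfi1b are filled without KO replicate 2 alone, at 0.73 and 0.87, and Gfi1b, Hlf and Fli1 fall below 0 without KO replicate 1.

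Markers of the other cell types that use Gata2 and Gfi1b were read beside them. Of 12 mast cell and basophil markers 7 passed as higher and none as lower (58.3% past the threshold). Over all genes tested, 3.77% passed as higher and 3.01% as lower. The summed level of these 12 markers was 641 to 728 CPM in WT and 839 to 927 CPM in KO. Most of each sum was Kit, the receptor used in the sort. The 2 most abundant were Kit, at 617 and 708 CPM in WT and 697 and 702 CPM in KO, and the mast cell carboxypeptidase gene Cpa3, at 9.77 and 9.94 CPM in WT and 83.4 and 45.9 CPM in KO. Of 13 tested megakaryocyte and platelet markers 4 passed as higher and none as lower (30.8%, against 6.78% of all genes). The list's sums were 762 to 840 CPM in WT and 1076 to 1152 CPM in KO. Gp6, a platelet receptor gene, had no reads. Plek, the gene of pleckstrin, was among the most abundant and rose from 167 ± 21.7 to 298 ± 50.4 CPM.

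Of 11 tested erythroid markers 4 passed as higher and none as lower (36.4%, against 6.78% of all genes). The list's sums were 891 and 1293 CPM in WT and 2113 and 1321 CPM in KO. The globin genes Hba-a1 and Hbb-bt had no reads, while Hba-a2 had 0 to 8 and Hbb-bs 0 to 2 counts per library. These counts alone do not show whether globin RNA was absent. The carbonic anhydrase gene Car2 was at 682 and 758 CPM in WT and at 1013 and 642 CPM in KO, and Slc4a1, the red cell anion exchanger, at 46.7 and 245 CPM in WT and at 506 and 187 CPM in KO. Neither passed the threshold (adjusted p = 0.552 and 0.212). KO replicate 1, the higher KO library for Gata2 and Gfi1b, was also the higher for 8 of the 12 mast cell and basophil markers. It was the higher for 8 of the 11 tested erythroid markers too, and for 50.8% of all genes. The other mast cell, basophil and erythroid markers, among them Kit, Hdc and Car1, were higher in KO replicate 2. In other marker lists, KO replicate 1 was the higher for 11 of 12 B lineage and 10 of 12 neutrophil markers. For cell cycle markers it was 8 of 16, and for tested eosinophil markers 2 of 8. The part of these cell types in the values of Gata2 and Gfi1b was not tested. More generally, 9 of the 10 regulators were higher in KO replicate 1 than in KO replicate 2, with Mecom the exception, against 50.8% of all genes. The same held for 12 of the 13 partners of these factors described below, and for 8 of the 17 family relatives. In WT, 8 of the 10 regulators were higher in replicate 2 than in replicate 1, against 50.1% of all genes.

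The read counts sum over all starts of a gene, and Gata2 has 2 of them in RefSeq. The 250 bases before each start are shown for the 2 regulators with the highest fold changes, since the counts do not tell the starts apart; the windows are from RefSeq on GRCm38.p6, with letters matching a searched motif in capitals. Gata2 upstream start, chr6:88193641-88193890, plus strand, and Gata2 downstream start, chr6:88198414-88198663, plus strand, and the start of Gfi1b, chr2:28621983-28622232, minus strand, read as follows.
Gata2 upstream start: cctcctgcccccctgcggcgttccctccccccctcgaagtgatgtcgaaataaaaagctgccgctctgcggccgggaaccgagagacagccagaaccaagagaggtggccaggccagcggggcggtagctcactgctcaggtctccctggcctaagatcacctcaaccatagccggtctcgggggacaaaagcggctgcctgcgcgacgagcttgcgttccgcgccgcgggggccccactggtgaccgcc
Gata2 downstream start: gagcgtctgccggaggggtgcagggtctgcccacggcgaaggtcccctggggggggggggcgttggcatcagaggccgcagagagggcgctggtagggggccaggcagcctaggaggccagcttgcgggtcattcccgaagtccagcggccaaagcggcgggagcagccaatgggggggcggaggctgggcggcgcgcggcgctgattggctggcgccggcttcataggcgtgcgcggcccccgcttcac
Gfi1b: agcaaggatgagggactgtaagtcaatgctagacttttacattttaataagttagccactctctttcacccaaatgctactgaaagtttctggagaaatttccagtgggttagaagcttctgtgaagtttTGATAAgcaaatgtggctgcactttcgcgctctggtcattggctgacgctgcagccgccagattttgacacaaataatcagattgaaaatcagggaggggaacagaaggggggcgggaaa

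The motifs searched, on both strands, were AGATAA or TGATAA for GATA factors, CGGAAG or AGGAAG for ETS factors, and TGTGGT or TGCGGT for Runt factors. The Gfi1b window holds 1 GATA motif, in capitals above, and neither Gata2 window holds any of the 3. RefSeq windows matched 9 of the 10 regulators, with 15 windows in all. A GATA motif was in 3 of the 15, against 16.6% of the 32851 windows of all genes, an ETS motif in 3, against 39.2%, and a Runt motif in none, against 18.6%. A match is a run of letters and says nothing about whether a factor binds there. In Gata2 the upstream window is 67.2% and the downstream window 74.0% G and C, while that of Gfi1b is 44.4%.

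Of 13 partners of these factors, 1 was lower in KO and none higher. The 7.69% past the threshold lie near the 6.78% of all genes. Cbfb, the non-DNA-binding subunit of core binding factor that stabilises Runx1 on DNA, fell from 316 and 310 CPM in WT to 200 and 173 CPM in the KO libraries, to 0.596 of the WT level (log2 fold change -0.75, SE 0.15, adjusted p = 0.0147). Its KO libraries were well below WT. Runx1 itself did not pass, as given above, and whether the pair differ in their change was not tested. The call of Cbfb was lost on leaving out WT replicate 1 (adjusted p = 0.126) or WT replicate 2 (adjusted p = 0.0913), with log2 fold changes of -0.74 and -0.78.

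The next 3 partners by p were Spi1, the myeloid and lymphoid ETS factor PU.1 (log2 fold change -0.55, adjusted p = 0.159), Tcf3, the E protein E2A (-0.51, adjusted p = 0.188), and the bridging protein gene Lmo2 (-0.26, adjusted p = 0.259). Tal1 and Lyl1, the basic helix-loop-helix members of the shared complex, had log2 fold changes of 0.13 and 0.05; they are named here for their role and outside the rule for named genes. The median of the 13 partners was -0.15.

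Among 17 relatives from the same gene families, 1 passed (5.88%, against 6.78% of all genes). Elk3, an ETS repressor, fell from 204 and 194 CPM in WT to 126 and 116 CPM in the KO libraries (log2 fold change -0.72, SE 0.15, adjusted p = 0.0185), a call that was lost on leaving out WT replicate 1 (adjusted p = 0.183) or WT replicate 2 (adjusted p = 0.104). Gfi1, the relative of Gfi1b that restrains stem cell division and directs granulocyte fate, was at 40.1 and 29.9 CPM in WT and at 46.2 and 66.3 CPM in KO (0.68, adjusted p = 0.104). Its higher KO library was replicate 2, whereas that of Gfi1b was replicate 1. Mllt1, the relative of Mllt3 also called ENL, had a log2 fold change of -0.49 (adjusted p = 0.159), and the ETS repressor gene Etv3 one of -0.41 (adjusted p = 0.214).

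Of 23 corepressors and cofactors that these regulators recruit, 1 was higher and 2 were lower in KO (13% past the threshold, against 6.78% of all genes). The histone deacetylase genes Hdac1 and Hdac2, which act with Gfi1b and Etv6, fell from 132 ± 6.14 to 82.8 ± 12.3 CPM and from 181 ± 12.1 to 119 ± 0.669 CPM. Aff4, the scaffold of the super elongation complex that Mllt3 joins, rose from 171 ± 0.129 to 259 ± 45.9 CPM (log2 fold change 0.60, adjusted p = 0.0483). Men1, the menin gene, averaged 57.1 ± 7.83 CPM in the WT libraries and 36.7 ± 3.54 CPM in the KO libraries (adjusted p = 0.0832). The calls of Hdac1, Hdac2 and Aff4 were each lost without WT replicate 1 (adjusted p = 0.289, 0.325 and 0.298) and without WT replicate 2 (adjusted p = 0.153, 0.141 and 0.240), and Hdac1 and Aff4 also without KO replicate 2 (adjusted p = 0.0810 and 0.166). Hdac1 and Hdac2 also missed it with upper quartile scaling (adjusted p = 0.0589 and 0.0592), and Aff4 with DESeq2's size factors (adjusted p = 0.0540). Kdm1a, the histone demethylase that Gfi1b depends on, was chosen for its role and had a log2 fold change of -0.04 (adjusted p = 0.902).

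Cell cycle genes and B lineage genes were lower in KO too. Of 16 cell cycle markers 15 passed as lower and none as higher (93.8%, against 6.78% of all genes). Their summed level was 4722 to 4765 CPM in WT and 2699 to 2783 CPM in KO. The 2 most abundant, the proliferation marker Mki67 and the topoisomerase gene Top2a, had log2 fold changes of -0.41 (adjusted p = 0.0792) and -1.12 (adjusted p = 0.00110). Of 12 B lineage markers 11 passed as lower and none as higher (91.7%, against 6.78% of all genes). Their median log2 fold change was -2.42, with sums of 1120 and 1125 CPM in WT and 356 and 267 CPM in KO. The 2 most abundant were Dntt, the terminal transferase gene (-1.48, adjusted p = 0.00101), and the recombinase gene Rag1 (-3.46, adjusted p = 1.25e-05). The part of cell division and of B lineage cells in the values of Cbfb, Spi1, Tcf3, Elk3, Hdac1, Hdac2 and Ikzf1 was not tested.

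Of 25 other regulators of stem cells that were tested, 3 were higher and none lower (12% past the threshold, against 6.78% of all genes), with a median of 0.03. The count of lower genes rested on the processing: it was 7 with the replicate number as a block, 5 without KO replicate 1, 4 with no filter, 3 without KO replicate 2, 2 with the DESeq2 test or without WT replicate 1, and 1 without Rn45s, Xist and Y-linked genes. Zbtb16, the zinc finger factor PLZF, rose from 8.41 and 6.28 CPM in WT to 31.4 and 60.0 CPM in the KO libraries (log2 fold change 2.63, SE 0.34, adjusted p = 0.00139). Id2, an inhibitor of E proteins, rose from 5.96 and 6.44 CPM to 30.7 and 23.8 CPM (2.14, SE 0.30, adjusted p = 0.00261). Both passed in all 11 alternatives. Ikzf2, the Ikaros family member Helios, rose from 243 ± 19.9 to 360 ± 33.5 CPM (0.57, adjusted p = 0.0433), a call lost without either WT library (adjusted p = 0.374 and 0.171) and without KO replicate 2 (adjusted p = 0.0907). Ikzf1, Ikaros itself, averaged 765 ± 24.1 CPM in the WT libraries and 550 ± 38.8 CPM in the KO libraries and missed the threshold (-0.47, adjusted p = 0.0574).

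Of 22 genes used as markers of stem cells, 3 were higher and 1 lower in KO (18.2% past the threshold, against 6.78% of all genes). The median was 0.30, against 0.02 for all genes, and 18 had a positive log2 fold change. The markers that did not pass numbered 18. Among them, named outside the rule, were Procr (0.22, edgeR adjusted p = 0.511), Slamf1 (0.66, 0.264), Fgd5 (-0.06, 0.890) and Tek (0.10, 0.873). Clca3a1, a chloride channel regulator gene, rose from 1.15 and 1.13 CPM to 8.91 and 14.2 CPM (log2 fold change 3.34, adjusted p = 0.00279). The sulfotransferase gene Sult1a1 rose from 3.77 and 3.10 CPM to 12.0 and 21.0 CPM (2.26, adjusted p = 0.00856), a call lost on leaving out WT replicate 2 (adjusted p = 0.0604). The von Willebrand factor gene Vwf, found in platelet-biased stem cells and in megakaryocytes, rose from 4.27 and 4.95 CPM to 9.95 and 15.1 CPM (1.44, adjusted p = 0.0452). Cd34, low on mouse long-term stem cells and high on progenitors, fell from 499 and 495 CPM to 369 and 282 CPM (-0.61, adjusted p = 0.0408).

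KO replicate 2 was the higher KO library for Clca3a1, Sult1a1 and Vwf, unlike for Gata2 and Gfi1b. The calls of Vwf and Cd34 were lost without WT replicate 1 (adjusted p = 0.270 and 0.231), WT replicate 2 (0.159 and 0.174) or KO replicate 2 (0.145 and 0.0933), and that of Cd34 with upper quartile scaling (adjusted p = 0.0648). Mllt3, a member of both groups, is counted in this list too. Vwf is also among the 4 megakaryocyte and platelet markers that passed as higher, so both lists hold that call. Kit, which did not pass, is in this list as well as the mast cell and basophil list. Of 11 tested dendritic cell markers 7 passed as higher and none as lower (63.6%, against 6.78% of all genes). The list's sums were 554 and 593 CPM in WT and 1590 and 1465 CPM in KO. The most abundant, Flt3, was at 418 and 456 CPM in WT and at 545 and 607 CPM in KO. It did not pass (edgeR adjusted p = 0.104). Next was Cd74, which passed as higher, at 56.9 and 53.6 CPM in WT and at 394 and 282 CPM in KO. The part of dendritic cells in the values of Id2 and Zbtb16 was not tested.

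**Figure D4:**
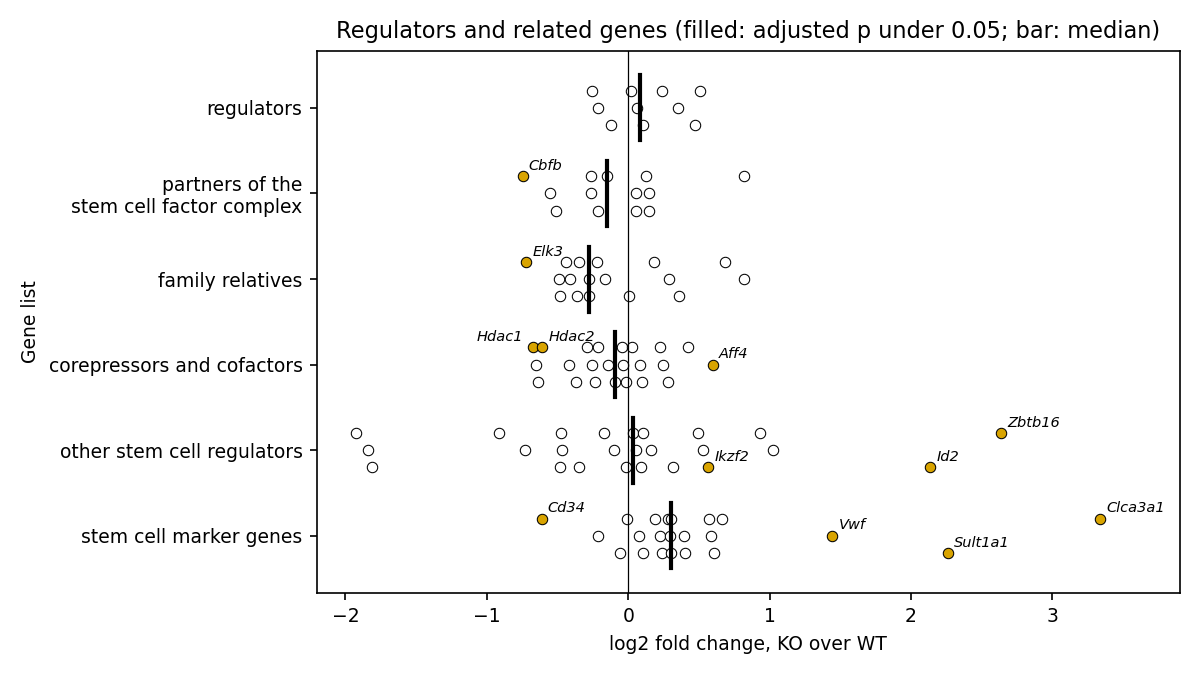
Log2 fold change of KO over WT for the tested genes of each list, 1 symbol per gene, with filled and named symbols past an adjusted p of 0.05 and a bar at the list's median; vertical steps within a list only separate symbols. The regulators hold no filled symbol and lie between -0.26 and 0.51, while Zbtb16, Id2, Clca3a1, Sult1a1 and Vwf reach 1.44 to 3.34.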

How the data were processed

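RNA was sequenced from 2 WT and 2 KO samples of sorted LSK cells, with NuGEN Ovation Ultralow libraries from 20 ng of RNA, per the labels' protocols. The authors deposited raw read counts per gene symbol. The submitters' processing notes name TopHat2 2.1.1, SAMtools 1.5, Picard 2.9.4, HTSeq 0.8.0 and mm10; the annotation and strand setting were not given in the sources used here. Exons of Mecom, Prdm16, Runx1 and Etv6 share 0.65% to 2.26% of their length with a gene on the other strand in GENCODE M21, which also gave positions and exon lengths.

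Counts were tested with edgeR 4.0.16 (TMM, filterByExpr with minimum count 10 and total 15, quasi-likelihood test of KO against WT, Benjamini-Hochberg adjustment over all 14140 genes tested, threshold 0.05), a step tested on simulated data. CPM are means ± SD, n = 2. DESeq2 1.42.0, other scalings and filters, a replicate block and leaving out each library were the alternatives. The regulators and lists were chosen with earlier results of these data known. Genes named are all regulators, up to 4 genes with the smallest p per related list, the 2 most abundant per marker list discussed (1 such gene is not reported here), and others where said. The 2 libraries of a group differed by more than counting noise (chi-square per gene 39.5 for WT and 54.3 for KO).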

Additional observations from a re-analysis of the deposited data

How the results depend on the processing

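With 2 libraries per group the fits have 2 residual degrees of freedom, or 1 with the replicate block or with a library left out. When a library is left out, the lone sample is assumed to vary like the other group. The edgeR fit also borrows variance from other genes, so its intervals and p-values lean on that borrowing. Of 110 values of single regulators over the 11 alternatives, 101 kept their direction and their side of the threshold. The 5 that turned sign came from leaving out a library, over which Fli1 ran from -0.2549 to 0.2414, Hlf from -0.1902 to 0.2639, Gfi1b from -0.09158 to 0.8669 and Mecom from -0.09269 to 0.3047. Fli1 was below 0 without WT replicate 2 (-0.03) and without KO replicate 1, Hlf and Gfi1b without KO replicate 1, and Mecom without WT replicate 1. The number of regulators higher in KO was 0, and it was 1 with no filter, 1 with the replicate block (Gata2, adjusted p = 0.0117) and 0 to 2 with a library left out. None was lower under any alternative run. Over all genes, 533 were higher and 425 lower. These counts became 878 and 792 with the DESeq2 test, 1056 and 987 with no filter, and 1312 and 1314 with the replicate block. With a library left out they ran from 160 to 997 and from 95 to 1161. The causes were not tested. The labels give the groups the same replicate numbers without saying that they pair the samples, and the deviations of same-numbered libraries correlated by 0.076 across genes. Calls in the related lists ranged over the alternatives from 0 to 3 lower partners, 0 to 1 lower relatives, 0 to 4 lower cofactors, 2 to 5 higher and 0 to 7 lower stem cell regulators and 1 to 4 higher stem cell markers.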

Other observations

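The ETS family, with Erg, Fli1 and Etv6, the PRDM family, with Prdm16 and Mecom, and the ETO family were also read; these lists were added after the values were seen. Of 26 ETS genes 20 were tested, and Elk3 alone passed the threshold, as lower (5.0%, against 6.78% of all genes; 15 of the 20 had a negative log2 fold change, with a median of -0.26). Elf3, Etv2, Fev and Spdef had no reads. Etv5, an ETS activator, was at 52.0 and 49.2 CPM in WT and at 80.7 and 64.3 CPM in KO (log2 fold change 0.52, edgeR adjusted p = 0.116), and Elf4, which acts on stem cell quiescence, had a log2 fold change of 0.00 (interval -0.30 to 0.30). Of 15 PRDM genes 10 were tested and none passed (edgeR, against 6.78% of all genes). At an unadjusted p under 0.05 there were 2, Prdm1 and Prdm9, against 24.5% of all genes.

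The ETO corepressors bind the same complexes as the regulators. Runx1t1, the ETO gene itself, had 15 and 6 counts in the WT libraries and 80 and 65 in the KO libraries, a rise from 0.390 ± 0.210 to 3.46 ± 0.222 CPM (SD, n = 2; log2 fold change 3.12, SE 0.80, edgeR adjusted p = 0.0401). It missed the threshold when any 1 library was left out (adjusted p from 0.0662 to 0.208). Its far more abundant relatives Cbfa2t3, at 273 ± 27.8 CPM in the WT libraries and 283 ± 29.9 CPM in the KO libraries, and Cbfa2t2 had log2 fold changes of 0.05 and 0.02 and did not pass (adjusted p = 0.864 and 0.970).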
